A study of Danio rerio with 6 samples.

Results

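The genes described here are 6 transcription regulators of the preplacodal region and of otic competence, grouped here as competence factors, namely *foxi1*, *gata3*, *tfap2a*, *tfap2c*, *eya1* and *six1b*. They were taken by Ensembl gene identifier from the 32266 genes of the count table, and the chromosome of each was checked against the one given for it, so that 6 of 6 were retained. The rule names identifiers and uses no measured value, but the genes were chosen with earlier results of these data known.

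RNAseq had been performed on fluorescence-activated sorted cells of zebrafish embryos at late stages of the otic-epibranchial progenitor domain (OEPD), the ectoderm that forms the otic placode and the epibranchial ganglia. The sort used the *pax8*:DsRed transgene, a red fluorescent reporter carried in heterozygosity by all embryos, which marks the OEPD and the nephric anlagen. The 3 wild-type samples (wt 1 to 3) came from embryos at 6 to 9 somites with this transgene and no other stated alteration. The 3 morphant samples (dlx3p4_MO 1 to 3) came from embryos of the same kind and stage that had received antisense morpholino oligomers against *dlx3b* and *dlx4b* at the one-cell stage, and they ask which genes depend on the Dlx3b/4b homeodomain factors. The study describes no control injection, so that in these counts loss of Dlx3b/4b and the injection itself cannot be told apart. It cites earlier work in which injected embryos showed the full phenotype of *dlx3b/4b* mutants. It also ran in situ hybridization on *dlx3b/4b* deletion mutants, and the genes shown there do not include the 6 competence factors. Each sample is a pool of sorted cells, and in such bulk RNA fewer cells of a type and less RNA per cell cannot be told apart.

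Competence factors act before the placode is visible. Foxi1 is a forkhead protein at the top of otic induction in zebrafish, where it acts in parallel with Dlx3b/4b and is required for *pax8* in the OEPD. Tfap2a and Tfap2c are AP-2 factors with overlapping roles in preplacodal ectoderm and neural crest, and Gata3 is a zinc finger factor of placodal ectoderm, the ear and the pronephros. Eya1 is a coactivator with phosphatase activity that works with a homeodomain partner, here encoded by *six1b*, both marking the preplacodal region, and the human gene *EYA1* is mutated in branchio-oto-renal syndrome.

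Total counts on genes were 27373965 to 28480101 in wild-type and 23846555 to 26250129 in morphant samples, and a gene with 3 counts had 0.105 to 0.126 CPM (counts per library scaled to one common total), a limit for counting error only. Mitochondrial genes took 4.63% of the counts in wt 2 and 2.02% to 3.09% in the other 5 libraries. The sort markers were present in every library: the summed level of the 6 OEPD markers (*pax8*, *pax2a*, *sox3*, *sox9a*, *dlx3b* and *fgf24*) was 932.2 to 1332 CPM in wild-type and 946.0 to 1161 CPM in morphant samples, and that of the 5 nephric markers was 1514 to 1845 and 1206 to 1614 CPM. The largest part of the OEPD sum was *pax2a*, at 607.4 to 744.4 and 522.7 to 600.5 CPM, so that the sum says little of the lower markers. *sox3* had 21.6, 52.4 and 19.5 CPM in wt 1, 2 and 3 and 9.53, 28.4 and 47.6 CPM in morphant 1, 2 and 3. *fgf24* was less uneven, at 28.3 to 44.0 CPM in wild-type and 22.4 to 30.0 CPM in morphant samples. The 4 paraxial mesoderm and muscle markers that were matched summed to 39.6 to 63.2 and 50.2 to 57.3 CPM, and the 4 forebrain markers to 10.8 to 29.1 and 8.52 to 33.1 CPM. The sorted material also held blood and vascular RNA, with 2169 to 2853 CPM in wild-type and 1736 to 1845 CPM in morphant samples over 3 markers.

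The RNA of *dlx3b* and *dlx4b* is no check of the knockdown, because counts measure RNA and not protein. *dlx3b* had 48.0, 144.1 and 30.2 CPM in wt 1, 2 and 3 and 51.2, 78.7 and 179.8 CPM in morphant 1, 2 and 3. *dlx4b* had 6.16, 25.2 and 3.84 CPM in wild-type and 4.26, 8.47 and 23.9 CPM in morphant samples. Both genes were thus highest in wt 2 and morphant 3. This pair of libraries recurs in the values of the competence factors and in the marker sums of several other cell types.

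Of the 6 competence factor genes, all 6 had enough counts to be tested, and 1 of them, *tfap2a*, fell in morphant samples, with an adjusted p below the threshold of 0.1 (edgeR, quasi-likelihood F test, Benjamini-Hochberg over all tested genes). Among the 17526 genes tested, 10.9% passed that threshold in either direction, 6.05% as lower and 4.85% as higher in morphant samples. *eya1* and *six1b* had lower means in morphant samples without passing the test, and *gata3*, *foxi1* and *tfap2c* differed by less than their spread. The log2 fold change was below 0 for 4 of the 6 genes, with a median of −0.45 against −0.01 over all tested genes. The morphant and wild-type values did not overlap for 1 of the 6, whereas they did not overlap for 31.5% of all tested genes.

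**Figure D1:**
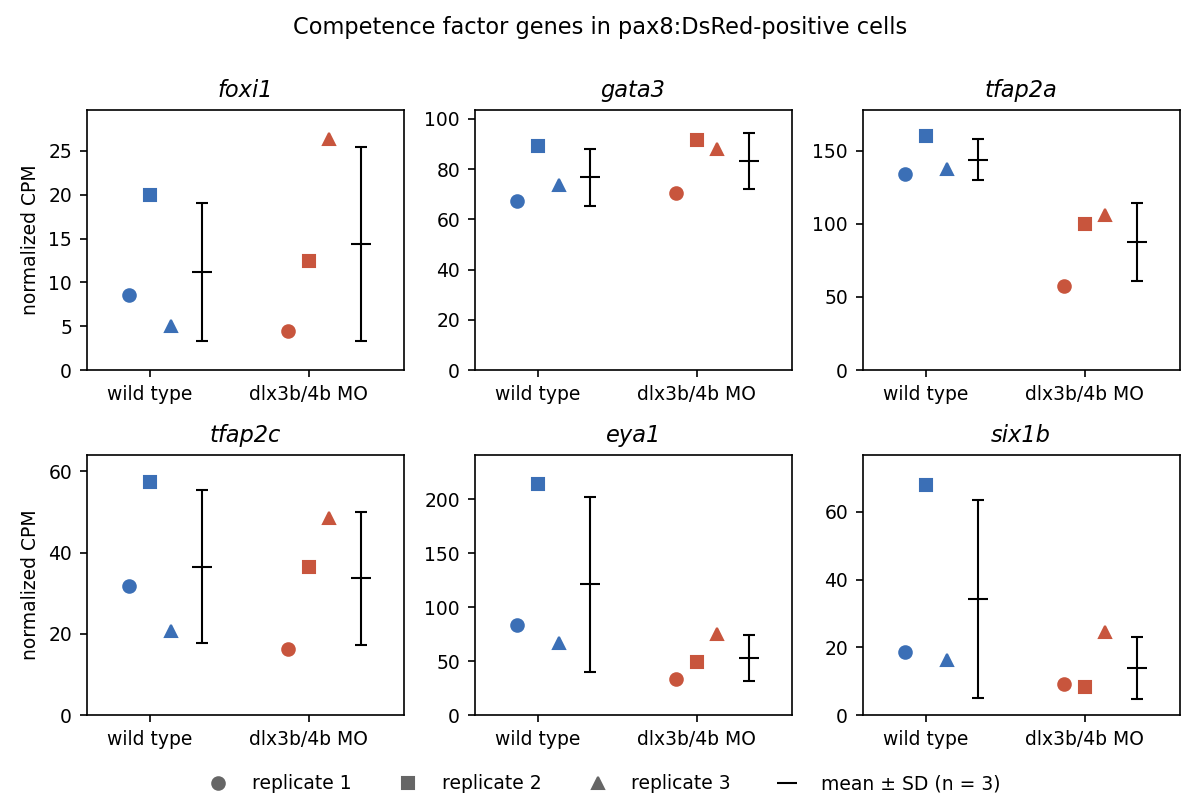
Normalized level of the 6 competence factor genes, in CPM (counts scaled to a common library total) on a linear axis from 0, in each of the 3 wild-type (blue) and 3 *dlx3b/4b* morphant (red) samples, with the mean and SD of each group in black and the replicate number as the marker shape. The groups separate for *tfap2a*, at 134.3 to 159.8 CPM against 57.2 to 106.2 CPM, and overlap for the other 5 genes, where wt 2 or morphant 3 is often far from the rest of its group.

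The Foxi and Gata members are given first. *foxi1* (ENSDARG00000104566) lies on chromosome 12 at 43916243 to 43918010 on the reverse strand, in the coordinates of the deposited table, with 2 exon blocks of 1636 bp in sum. It was detected with 240, 535 and 145 counts in wt 1, 2 and 3 and with 115, 330 and 624 counts in morphant 1, 2 and 3. After normalization this was 8.55, 19.998 and 4.98 CPM in wild-type and 4.49, 12.4 and 26.3 CPM in morphant samples. Both the lowest and the highest of the 6 libraries were morphant, and all wild-type values lay within the morphant range. The means were 11.2 ± 7.85 CPM (SD, n = 3) and 14.4 ± 11.1 CPM (SD, n = 3). The estimated log2 fold change of *foxi1* was 0.20 (SE of the estimate 0.57, 95% interval −1.08 to 1.48, adjusted p = 0.872 in edgeR's test), an interval that runs from a fold of 0.474 to one of 2.79. Without the libraries of replicate 3 the estimate was −0.77 (adjusted p = 0.0123, edgeR), in a fit that called 22.3% of all tested genes. Over all sets of samples the estimate ran from −0.77 to 1.09.

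*gata3* (ENSDARG00000016526) spans chromosome 4 from 25065312 to 25075312 on the reverse strand, with 5 exon blocks and 3047 bp. It had 1893, 2387 and 2141 counts in wild-type and 1800, 2426 and 2082 counts in morphant samples. The corresponding levels were 67.4, 89.2 and 73.5 CPM in wt 1, 2 and 3 and 70.3, 91.4 and 87.9 CPM in morphant 1, 2 and 3. All libraries were close to each other, with the highest wild-type value 1.32 times the lowest, and the groups overlapped. The wild-type mean of 76.7 ± 11.2 CPM (SD, n = 3) and the morphant mean of 83.2 ± 11.3 CPM (SD, n = 3) gave a log2 fold change of 0.12 (SE 0.10, 95% interval −0.12 to 0.35, adjusted p = 0.549, edgeR). The interval is the narrowest of the 6 genes and runs from a fold of 0.921 to one of 1.28. The estimate lay between 0.03 and 0.25 whichever library was left out. The nephric markers, whose tissue also expresses *gata3*, included 1 gene that rose, *osr1* (0.76 on the log2 scale, adjusted p = 0.00839, edgeR), and 1 that fell, *hnf1bb* (−0.58, adjusted p = 0.0405, edgeR). Over all tested genes 10.9% were called, and the part of the nephric markers in the *gata3* values was not tested.

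*tfap2a* (ENSDARG00000059279), an AP-2 factor of placodal ectoderm and neural crest, is on chromosome 24 at 8581299 to 8592141 on the reverse strand, with 9 exon blocks and 2971 bp. It had 3770, 4276 and 4007 counts in wild-type and 1465, 2659 and 2516 counts in morphant samples. These were 134.3, 159.8 and 137.5 CPM in wt 1, 2 and 3 and 57.2, 100.2 and 106.2 CPM in morphant 1, 2 and 3. Every morphant library was below every wild-type library, and morphant 1 was the lowest by a wide margin. The mean fell from 143.9 ± 13.9 CPM (SD, n = 3) to 87.9 ± 26.7 CPM (SD, n = 3). In the edgeR test the log2 fold change came to −0.76 (SE 0.15, 95% interval −1.10 to −0.41, adjusted p = 0.0271, edgeR), a fold of 0.592 with an interval of 0.466 to 0.752. The direction was the same in all 9 sets of samples with libraries left out, with log2 fold changes from −0.92 to −0.48, but the call was not. It was lost without replicate 1 of both groups (−0.52, adjusted p = 0.285, edgeR), in a fit that called 1.04% of all tested genes. In the model without the replicate block it was lost without wt 1 (−0.76, adjusted p = 0.114) or without morphant 2 (−0.81, adjusted p = 0.117, both edgeR). Those fits called 7.05% and 5.15% of all tested genes, against 10.9% in the main fit.

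Other cells that use *tfap2a* were followed by their markers, of which 0 of 3 tested for neural crest and 1 of 5 for epidermis were called by edgeR, beside 10.9% of all tested genes. The 4 neural crest markers summed to 24.01, 62.9 and 22.1 CPM in wt 1, 2 and 3 and to 11.5, 20.8 and 31.1 CPM in morphant 1, 2 and 3. Of these, *foxd3* was at 0 in all 6 libraries, and the log2 fold changes of *sox10*, *crestin* and *snai1b* were −1.21 (adjusted p = 0.199), −0.26 (0.635) and 0.40 (0.408, all edgeR). The 5 epidermis markers summed to 848.5 to 2003 CPM in wild-type and 821.4 to 1392 CPM in morphant samples, and 1 of them fell, the cell adhesion gene *cdh1* (−1.04, adjusted p = 0.00999, edgeR), whereas the keratin *krt4* had a log2 fold change of 0.05 (adjusted p = 0.897, edgeR). The share of these cells in the *tfap2a* difference was not tested.

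*tfap2c* (ENSDARG00000040606), the second AP-2 member, spans chromosome 6 from 56157660 to 56195515 on the forward strand, with 8 exon blocks and 5091 bp. It had 894, 1532 and 601 counts in wild-type and 414, 966 and 1149 counts in morphant samples, or 31.8, 57.3 and 20.6 CPM and 16.2, 36.4 and 48.5 CPM. The libraries of each group were spread over a range of 2.78-fold in wild-type and 3.0-fold in morphant samples, and the groups overlapped, with wt 2 and morphant 3 the highest. The means of 36.6 ± 18.8 CPM (SD, n = 3) and 33.7 ± 16.3 CPM (SD, n = 3) gave a log2 fold change of −0.15 (SE 0.36, 95% interval −0.95 to 0.66, adjusted p = 0.846, edgeR). Its sign depended on the libraries used, and it was −0.78 without replicate 3 (adjusted p = 0.000346, edgeR). In the model with no replicate block it was 0.36 without wt 2 (adjusted p = 0.587, edgeR) and −0.12 on all 6 samples. The fit without replicate 3 called 22.3% of all tested genes.

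*eya1* (ENSDARG00000014259) is the longest locus of the 6, on chromosome 24 at 13780647 to 13871040 on the forward strand, with 19 exon blocks and 4986 bp. It had 2338, 5728 and 1934 counts in wild-type and 869, 1310 and 1786 counts in morphant samples. This was 83.3, 214.1 and 66.4 CPM in wt 1, 2 and 3 and 33.9, 49.3 and 75.4 CPM in morphant 1, 2 and 3. The highest value by far was that of wt 2, and the groups overlapped only in that morphant 3 was above wt 3. Wild-type samples had a mean of 121.3 ± 80.9 CPM (SD, n = 3), and morphant samples one of 52.9 ± 21.0 CPM (SD, n = 3). The log2 fold change of −1.09 (SE 0.35, 95% interval −1.87 to −0.30) had an unadjusted p of 0.0123 and an adjusted p of 0.107 in edgeR's test, and thus missed the threshold. In the model with no replicate block the estimate was −1.20 on all 6 samples and −0.50 without wt 2 (adjusted p = 0.264, edgeR). With the block and without replicate 3 of both groups it was −1.69 (adjusted p = 1.37e-08, edgeR). Of all tested genes, 22.3% were called without replicate 3.

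*six1b* (ENSDARG00000026473), the homeodomain partner of Eya1, lies on chromosome 20 at 20600196 to 20606245 on the forward strand, with 2 exon blocks and 5417 bp. It had 523, 1819 and 474 counts in wild-type and 232, 224 and 583 counts in morphant samples, or 18.6, 68.0 and 16.3 CPM and 9.06, 8.44 and 24.6 CPM. As for *eya1*, wt 2 stood far above all others, and morphant 3 exceeded both wt 1 and wt 3. The means were 34.3 ± 29.2 CPM (SD, n = 3) and 14.0 ± 9.17 CPM (SD, n = 3), with a log2 fold change of −1.13 (SE 0.55, 95% interval −2.37 to 0.11, adjusted p = 0.261, edgeR). In the model with no replicate block the estimate was −1.29 on all 6 samples and −0.31 without wt 2 (adjusted p = 0.671, edgeR). With the block it grew to −2.02 without replicate 3 (adjusted p = 8.05e-06, edgeR). Here too, the fit without replicate 3 is the one that called 22.3% of all tested genes. The span of *six1b* overlaps a gene on the opposite strand without shared exons, and the strand setting of the counting is not stated, whereas no exon of any of the 6 genes overlaps an exon of another gene.

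**Figure D2:**
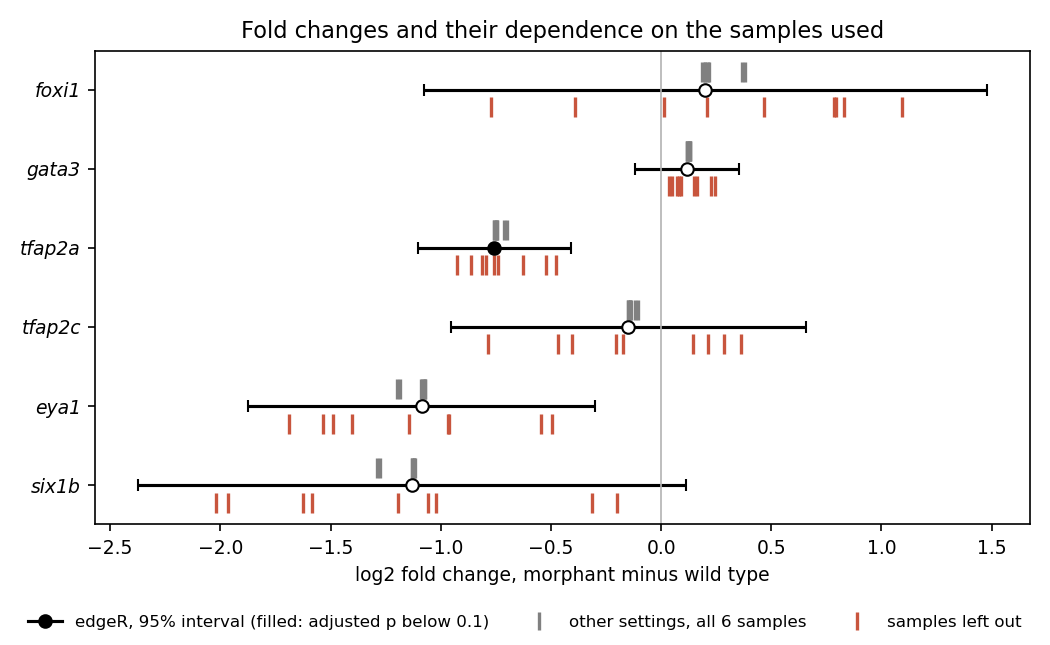
Log2 fold change of each competence factor gene, morphant minus wild type, from edgeR with its 95% interval (black; filled where the adjusted p is below 0.1), with the values from other settings on all 6 samples (grey ticks) and from sets with libraries left out (red ticks). *tfap2a* stays between −0.92 and −0.48 in all sets with libraries left out, *eya1* and *six1b* stay below 0 over wide ranges, and *foxi1* and *tfap2c* cross 0.

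Levels of different genes were compared per length, as RPKM, the CPM divided by the exon length in kilobases. In wild-type samples the order was *tfap2a* (48.4 ± 4.68 RPKM), *gata3* (25.2 ± 3.69), *eya1* (24.3 ± 16.2), *tfap2c* (7.19 ± 3.69), *foxi1* (6.83 ± 4.80) and *six1b* (6.33 ± 5.39; all SD, n = 3). The step from *tfap2a* to *gata3* exceeded the spread, whereas *gata3* and *eya1* did not differ beyond it, nor did *tfap2c*, *foxi1* and *six1b*. In morphant samples the order was *tfap2a* (29.6 ± 8.99 RPKM), *gata3* (27.3 ± 3.71), *eya1* (10.6 ± 4.20), *foxi1* (8.82 ± 6.76), *tfap2c* (6.62 ± 3.21) and *six1b* (2.59 ± 1.69). *tfap2a* and *gata3*, which were well apart in wild-type samples, did not differ beyond their spread across libraries in morphant samples. The means of *eya1*, *foxi1* and *tfap2c* did not either. Within each library, however, *eya1* was above *tfap2c*, at 6.81 against 3.18, 9.90 against 7.15 and 15.1 against 9.53 RPKM in morphant 1, 2 and 3. *tfap2a* was the most abundant of the 6 in every library but morphant 1, where *gata3* was, and *six1b* was the least abundant in every library but wt 2.

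The genes also differed in how they varied among the libraries. *tfap2a* and *gata3* were steady within wild-type samples, where the highest value was 1.19 and 1.32 times the lowest, and *foxi1* and *six1b* varied 4.02-fold and 4.18-fold. Over the 6 libraries, group difference included, the log2 CPM of *eya1* and *six1b* had a Pearson correlation of 0.96, and so did that of *foxi1* and *tfap2c*. In the same measure *tfap2a* had 0.83 with *eya1*, 0.60 with its paralog *tfap2c* and 0.23 with *gata3*. Once the group means were removed, this order turned: the deviations of *tfap2a* had a correlation of 0.68 with those of *eya1*, 0.86 with those of *tfap2c* and 0.85 with those of *gata3*. Deviations from a group mean depend on each other, so that correlations of deviations rest on fewer than 6 independent values. Within the groups the genes shared much of their variation among libraries, with positive values for all 15 pairs, from 0.51 to 0.99. *foxi1* with *eya1* (0.93) and *tfap2c* with *eya1* (0.93) were about as high as *eya1* with *six1b* (0.95). Each value describes 6 points that share their libraries. Within their groups, wt 2 and morphant 3 were also highest in the summed markers of epidermis (2003 and 1392 CPM). The same held for OEPD, forebrain, hindbrain and neural crest markers. Both libraries were lowest for nephric (1514 and 1206 CPM) and for blood and vascular markers (2169 and 1736 CPM). Paraxial mesoderm and ionocyte markers followed neither order. The part of these library differences in the shared variation was not tested.

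Ratios within a library do not depend on its total count, and 3 of them had been planned. *tfap2a* to *tfap2c* was set by family, *eya1* to *six1b* by partnership, and *foxi1* to *gata3*, the remaining genes, by neither. The log2 ratio of *tfap2a* to *tfap2c* was 2.07, 1.48 and 2.73 in wt 1, 2 and 3 and 1.82, 1.46 and 1.13 in morphant 1, 2 and 3, a difference of −0.63 (exact permutation test, two-sided, p = 0.2, adjusted p = 0.6 over the 3 ratios). The ratio of *eya1* to *six1b* was 2.16, 1.65 and 2.02 in the wild-type libraries and 1.90, 2.54 and 1.61 in the morphant libraries, a difference of 0.07 (exact p = 1.0, adjusted p = 1.0). The ratio of *foxi1* to *gata3* was −2.97, −2.15 and −3.86 in the wild-type libraries and −3.95, −2.87 and −1.74 in the morphant libraries, a difference of 0.14 (exact p = 0.8, adjusted p = 1.0). None of the 3 separated the groups, and 3 samples against 3 cannot give a p below 0.1 in this test.

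All 15 ratios among the 6 genes were then looked at, the other 12 after the data had been seen, so that they are a description with no test. In 6 of the 15 the groups did not overlap. Each of the 6 set *foxi1*, *gata3* or *tfap2c* against *tfap2a*, *eya1* or *six1b*, which are the 3 genes with the highest and the 3 with the lowest log2 fold change, so that the direction restates the single genes. The share of other gene pairs without overlap was not computed. The log2 ratio of *gata3* to *tfap2a* was −0.99, −0.84 and −0.90 in the wild-type libraries and 0.30, −0.13 and −0.27 in the morphant libraries, a difference of 0.88. The log2 ratio of *foxi1* to *eya1* was −3.27, −3.42 and −3.72 in the wild-type libraries and −2.90, −1.98 and −1.51 in the morphant libraries, a difference of 1.34. The differences of the other 4 were 1.41 for *foxi1* to *six1b*, 1.19 for *gata3* to *eya1*, 1.01 for *tfap2c* to *six1b* and 0.94 for *tfap2c* to *eya1*.

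Because wt 2 and morphant 3 were high for *eya1*, *six1b*, *foxi1* and *tfap2c* alike, the mean log2 level of *eya1* and *six1b* was also set against that of *foxi1* and *tfap2c*. The difference was 1.25, 1.83 and 1.69 in wt 1, 2 and 3 and 1.03, −0.06 and 0.27 in morphant 1, 2 and 3. Every wild-type library was above every morphant library, with the smallest gap between wt 1 and morphant 1. This separation follows from the choice of genes, because the difference averages the ratios of *foxi1* and *tfap2c* to *eya1* and *six1b*. Each of those ratios already separated the groups. The share of other sets of genes without overlap was not computed. The means were 1.59 ± 0.30 (SD, n = 3) and 0.41 ± 0.56 (SD, n = 3), a ratio in morphant samples of 0.443 times that in wild-type samples, which was likewise chosen after the data had been seen and carries no test.

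**Figure D3:**
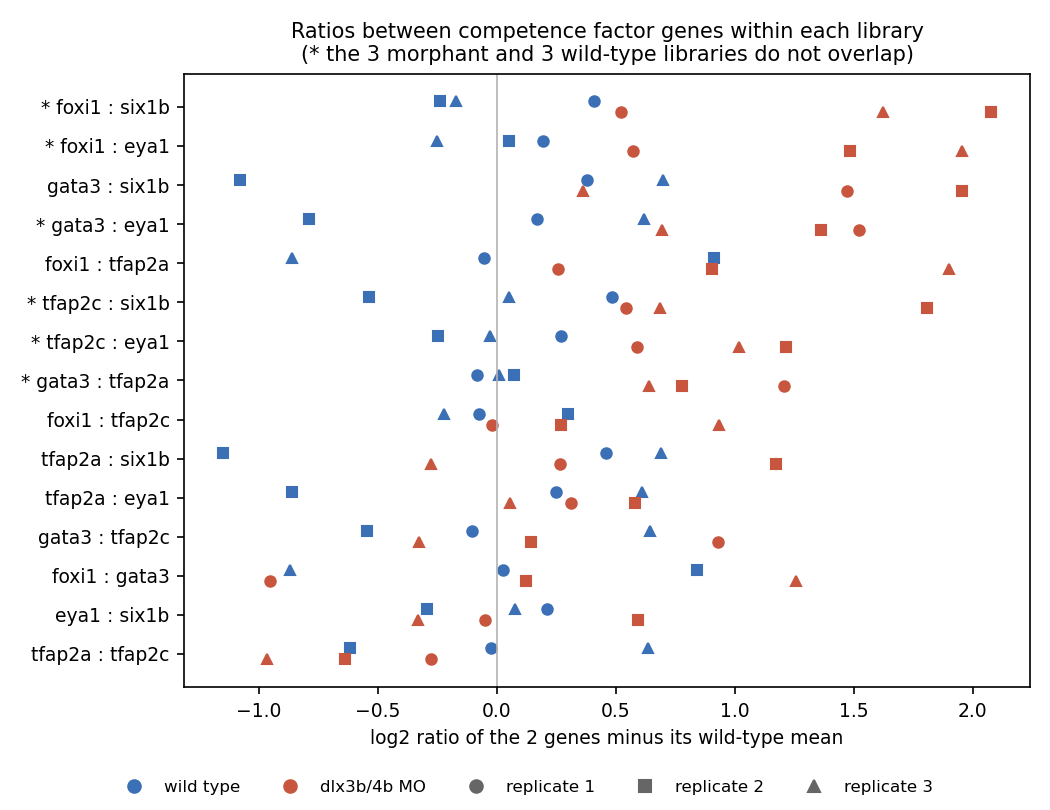
Log2 ratio of each of the 15 pairs of competence factor genes in every library, minus the wild-type mean of that ratio, for 3 wild-type (blue) and 3 *dlx3b/4b* morphant (red) samples, with the replicate number as the marker shape. An asterisk marks the 6 pairs without overlap, which include *gata3* to *tfap2a* and *foxi1* to *eya1*, and the 3 planned ratios (*tfap2a* to *tfap2c*, *eya1* to *six1b* and *foxi1* to *gata3*) overlap.

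The 3 genes whose level followed each competence factor most closely were sought among the 11393 tested genes with a mean count above 100, by Pearson correlation of log2 CPM over the 6 libraries. For *eya1* they were *six4b* (r = 0.995), a homeobox gene of the family of *six1b*, *HES4* (0.994) and *FIBP* (0.993). For *tfap2c* they were *tp63* (r = 0.994), which marks epidermal progenitors, *CCN2* (0.989) and *fhdc1* (0.988). The 3 closest to *foxi1* were *NDUFB6* (r = 0.996), *FABP3* (0.990) and the retinal homeobox gene *rx3* (0.985). Those of *gata3* were *COX18* (r = 0.984), *syne2b* (0.977) and *OTX2* (0.976), and those of *six1b* were *fam162a* (r = 0.997), *ETV4* (0.992) and *amotl2b* (0.992). They thus included genes of mitochondria and general metabolism as well as developmental genes. The closest to *tfap2a* were *proser3* (r = 0.999), *DHCR7* (0.996) and *AFG2B* (0.995). With 6 points and many genes compared, such values rank genes and carry no p.

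The related genes were grouped by family, in lists drawn up with earlier results of these data known. Of 42 genes listed, 40 were matched to an identifier and 35 were tested, of which 2 rose and 5 fell (10.9% of all tested genes were called), with a median log2 fold change of −0.38 against −0.01. The sum of both was 1 without replicate 1, where 1.04% of all tested genes were called, and 21 without replicate 3, where 22.3% were, and 2 without morphant 1 or without morphant 2 in the model with no replicate block, and so depended on single libraries.

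Of the Six-Eya-Dach network, in which Dach proteins act as cofactors, 10 genes were tested and 0 were called by edgeR, beside 10.9% of all tested genes. In this list 2 genes had an unadjusted p below 0.05 in edgeR, and DESeq2 with the replicate block called 1, *six2a*. The median log2 fold change was −0.60, with values below 0 for 8 of the 10. *six4b*, which lies next to *six1b*, had 25.8, 66.0 and 22.1 CPM in wt 1, 2 and 3 and 10.7, 13.9 and 25.2 CPM in morphant 1, 2 and 3, so that wt 2 was again far above the rest and the groups overlapped. The estimate for *six4b* was −1.11 on the log2 scale (SE 0.37, adjusted p = 0.122, edgeR). The paralogs *six1a*, *eya2* and *eya4* were not called either, at −0.62 (adjusted p = 0.464), −0.36 (0.627) and −1.05 (0.380, all edgeR) on the log2 scale. *eya3*, which is broadly expressed, had 94.2 to 101.5 CPM in wild-type and 105.4 to 112.4 CPM in morphant samples, and its log2 fold change of 0.14 was not called (adjusted p = 0.430, edgeR).

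Of the Tfap2 family, 2 further genes were tested (10.9% of all tested genes were called), and 1 fell. This was *tfap2e*, with 23, 85 and 14 counts in wild-type and 4, 3 and 4 counts in morphant samples. All morphant values were at or near 3 counts, and all wild-type values were above them. The fitted log2 fold change of −2.97 (SE 0.73, adjusted p = 0.0497, edgeR) rests on these few counts. Its call depended on the tool and the filter: DESeq2 called it with no replicate block but not with the block, where it gave no adjusted p, and a filter asking each library for 10 counts or more removed the gene. *tfap2b* had means of 1.11 ± 0.73 and 0.92 ± 0.72 CPM (SD, n = 3) and was not called (adjusted p = 0.676, edgeR). Of the Foxi family, which includes the ionocyte regulators *foxi3a* and *foxi3b*, 2 genes were tested and 0 called by edgeR (0 at an unadjusted p below 0.05, and 0 by DESeq2), with log2 fold changes of −0.05 and −0.24 and levels of at most 4.60 CPM in any library.

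The Gata family moved in both directions. *gata1a*, the erythroid regulator, fell from 348.7 ± 48.4 to 164.7 ± 32.8 CPM (SD, n = 3), with a log2 fold change of −1.09 (adjusted p = 0.00542, edgeR). It is also 1 of the 3 blood and vascular markers, of which 2 were called, both lower, beside 10.9% of all tested genes. All 3 were lower without overlap, as 31.5% of all tested genes were without overlap in either direction. The marker not called was *tal1* (−0.38, adjusted p = 0.123, edgeR). *gata5* and *gata6*, which act in endoderm and heart, rose with log2 fold changes of 0.73 (adjusted p = 0.00999) and 0.71 (adjusted p = 0.0725, edgeR). *gata2a*, the closest in role to *gata3* of those tested, had a log2 fold change of 0.14 (adjusted p = 0.406, edgeR). Of 5 Gata genes tested, 2 rose and 1 fell, with a median of 0.71, beside 10.9% of all tested genes called.

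Of the other otic and epibranchial genes, 16 were tested, of which 3 fell and 0 rose (10.9% of all tested genes were called). Their median log2 fold change was −0.34. *sox9b*, a Sox factor of otic and neural crest cells, had 106.4, 437.4 and 89.5 CPM in wild-type and 26.8, 34.6 and 54.9 CPM in morphant samples, with a log2 fold change of −2.11 (SE 0.45, adjusted p = 0.0317, edgeR). Its wild-type profile, with wt 2 well above the others, is the one seen for *eya1* and *six1b*, but without overlap of the groups. The Iroquois genes *irx1b* (−1.19, adjusted p = 0.0509) and *irx4b* (−2.40, adjusted p = 0.0730, edgeR) fell as well, and of the 3 genes DESeq2 called *sox9b* and *irx4b* but not *irx1b*. The values of *irx4b* rest on few counts, 39, 170 and 34 in wt 1, 2 and 3 and 5, 10 and 20 in morphant 1, 2 and 3, with wt 2 far above the rest. *pax2a*, which follows competence in the OEPD, had 607.4 to 744.4 CPM in wild-type and 522.7 to 600.5 CPM in morphant samples, and *pax8*, whose reporter defined the sort, had 227.4 to 303.7 and 265.1 to 415.3 CPM. Neither was called (adjusted p = 0.200 and 0.241, edgeR).

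**Figure D4:**
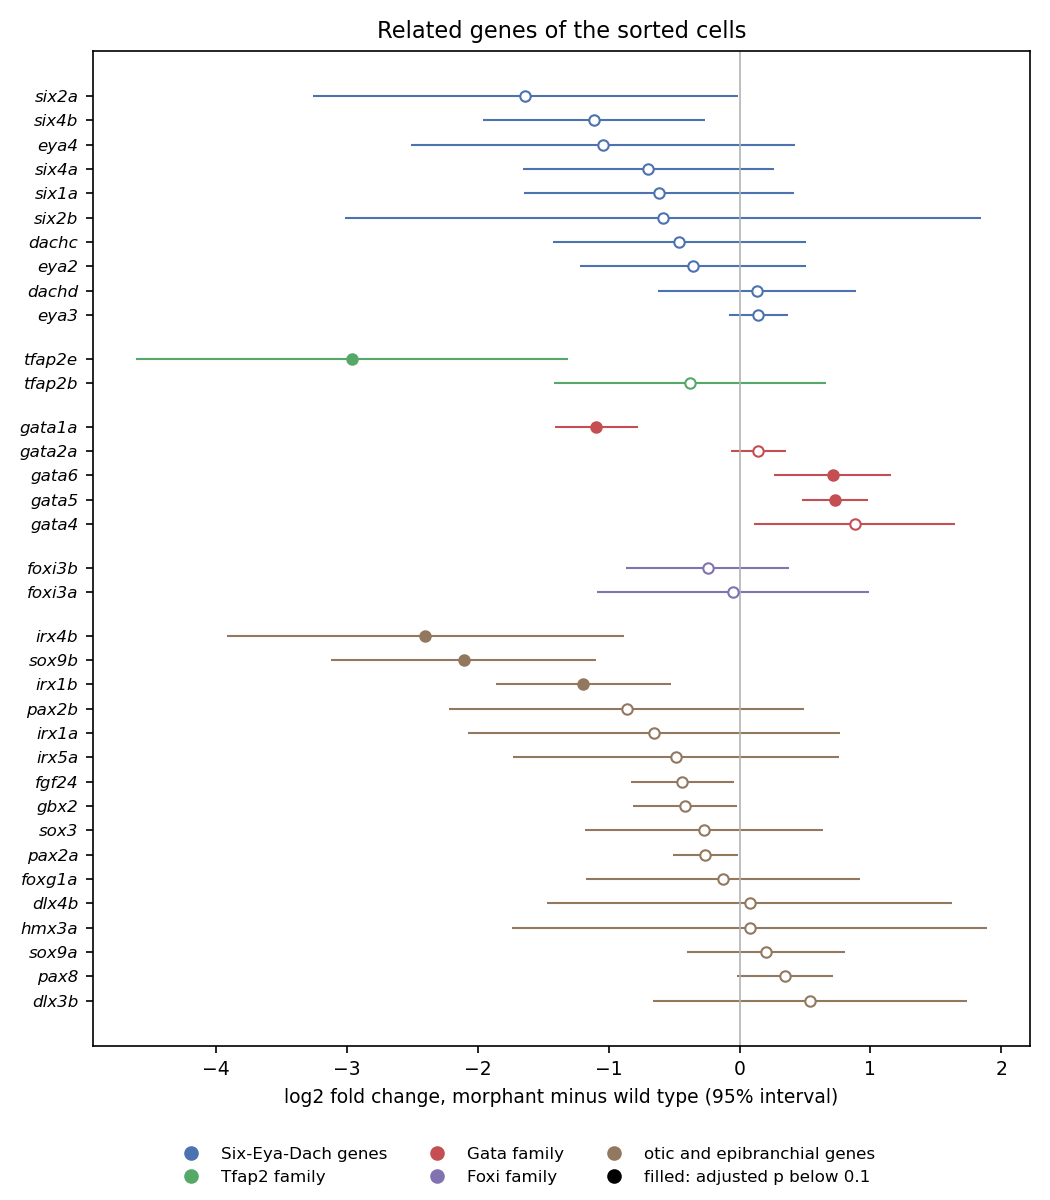
Log2 fold change, morphant minus wild type, with its 95% interval from edgeR for the 35 tested genes related to the competence factors, coloured by list and filled where the adjusted p is below 0.1. The 7 filled points are *tfap2e*, *gata1a*, *irx4b*, *sox9b* and *irx1b* below 0 and *gata5* and *gata6* above 0, and 8 of the 10 Six-Eya-Dach genes lie below 0 with open symbols.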

How the data were processed

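The authors deposited raw counts of uniquely aligned reads per Ensembl gene for 3 wild-type and 3 morphant samples, made with GSNAP and featureCounts, without normalization. The submitters' processing notes name featureCounts 1.5.2 and the genome build GRCz10, whereas the study's methods name a later build and version, and both also differ in the library protocol (poly-dT enriched, strand-specific libraries in the labels, Smart-seq2 in the methods). Coordinates are those of the deposited table, whose build is therefore not certain. The 92 spike-in features had 0 counts and were left out.

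Counts were normalized with TMM, filtered with filterByExpr and tested with edgeR 4.0.16 (R 4.3.3, quasi-likelihood test, condition plus a block for the replicate number, since the methods use a multi-factor design for clutch). P-values were adjusted by Benjamini-Hochberg over 17526 genes, with a threshold of 0.1. Standard errors come from the log2 fold change and its F statistic. The labels describe separate samples and the methods biological replicates. For ratios and correlations, a prior count of 2 was added before log2 CPM were taken, and exact permutation tests used all 20 splits. Alternatives were the model with no block, DESeq2 1.42.0, RLE normalization, other filters, a threshold of 0.05 and leaving out libraries. The code was tested on simulated data with the same spread for every gene, which checks the code and not the error rates in these samples.

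Symbols came from a table that named 26433 of the 32266 identifiers. Symbols lacking a last letter were resolved by chromosome in RefSeq names, and of the lists 6 genes were not matched (*dacha*, *dachb*, *desma*, *etv2*, *fli1a* and *eng2a*). Named genes are the 6 competence factors, called genes and close paralogs of the family lists, and the 3 genes most alike to each competence factor. Marker lists were OEPD, nephric, paraxial mesoderm and muscle, blood and vascular, neural crest, epidermis, ionocyte precursor, forebrain, and hindbrain with midbrain-hindbrain boundary genes. The competence factors and all lists were chosen with earlier results of these data known.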

Additional observations from a re-analysis of the deposited data

How the results depend on the processing

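With all 6 samples, *tfap2a* was called under all 7 alternatives, with log2 fold changes of −0.76 to −0.70 and adjusted p of 9.70e-06 to 0.0601 (edgeR or DESeq2), and *foxi1*, *gata3* and *tfap2c* were called under none. In the fit with no replicate block, values were −0.71 for *tfap2a* (adjusted p = 0.0601), −1.20 for *eya1* (0.111), −1.29 for *six1b* (0.194), 0.37 for *foxi1*, 0.12 for *gata3* and −0.12 for *tfap2c*, and no call among the 6 changed. Deviations of same-numbered samples correlated at 0.16, 0.05 and −0.14 for numbers 1, 2 and 3. Over all pairs of a wild-type and a morphant sample, the highest value was 0.22, between wt 2 and morphant 3. The lowest was −0.24, between wt 2 and morphant 1. The numbers were thus not shown to pair the samples. The block moved the count of called genes from 2405 to 1911. DESeq2 with no block called 3074, and an adjusted p below 0.05 left 997 genes and 4 of the 7 related genes. With no filter on low counts *eya1* (−1.08, adjusted p = 5.39e-06) and *six1b* (−1.12, adjusted p = 0.00175) passed edgeR's threshold and 13 related genes were called. The prior degrees of freedom were then 65.0 in place of 7.01, and the cause was not tested.

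Libraries were left out in 9 sets, 6 of them single libraries in the model with no replicate block. The ranges were −0.77 to 1.09 for *foxi1*, 0.03 to 0.25 for *gata3*, −0.92 to −0.48 for *tfap2a*, −0.78 to 0.36 for *tfap2c*, −1.69 to −0.50 for *eya1* and −2.02 to −0.20 for *six1b*. *foxi1* changed sign without replicate 3 (−0.77) and without morphant 3 (−0.39), and *tfap2c* without replicate 1 (0.28), replicate 2 (0.15), wt 2 (0.36) and morphant 1 (0.21). *eya1* was also called without wt 3 (−1.49, adjusted p = 0.0564, edgeR). Like every edgeR fit here, that fit shares 1 estimate of spread per gene between the groups. *tfap2a* lost its call without replicate 1 (−0.52), wt 1 (−0.76) and morphant 2 (−0.81). The highest *foxi1* value with a whole replicate left out was 0.83 (without replicate 1), and the highest *eya1* value −0.54 (without replicate 2). Called genes numbered 185 to 3955 (1263 without wt 1, 985 without morphant 1 and 932 without morphant 2), and related genes called 1 to 21. The log2 ratios ranged from −0.93 to −0.31 for *tfap2a* to *tfap2c*, −0.19 to 0.27 for *eya1* to *six1b* and −0.41 to 0.69 for *foxi1* to *gata3*. Without replicate 3 the prior degrees of freedom were 22.7, against 7.01 with all samples. With few libraries left, that fit leans on spread shared among genes. As many libraries were kept without replicate 1 and without replicate 2, where 185 and 1009 genes were called. The reason for the small adjusted p-values without replicate 3 was not tested. Each group has 3 samples, and depth was not varied.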

Other observations

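The genes next to the competence factors gave values of their own. The gene beside *tfap2a*, ENSDARG00000075180, starts 3943 bp away in the opposite orientation and had 80, 88 and 82 counts in wt 1, 2 and 3 and 26, 42 and 57 counts in morphant 1, 2 and 3, with no overlap of the groups and a log2 fold change of −0.90 (adjusted p = 0.171, edgeR). Over all tested genes, 31.5% showed no overlap. On the other side of *tfap2a*, *SLC35B3* lay 213351 bp away and was also lower without overlap (−0.34, adjusted p = 0.297, edgeR). Absence of overlap was not particular to the neighbours of *tfap2a*. *RTF2*, 2551 bp from *tfap2c*, was higher without overlap (0.29, adjusted p = 0.133, edgeR). Its levels were 61.9 to 64.9 CPM in wild-type and 76.2 to 78.6 CPM in morphant libraries. For *TAF3*, 19717 bp from *gata3*, the groups overlapped (0.06, adjusted p = 0.778, edgeR). Neither neighbour of *foxi1* had more than 3 counts in any library.

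Among the markers of other cells, *lmo2*, a blood and endothelial regulator, fell with a log2 fold change of −0.41 (adjusted p = 0.0580, edgeR), as did the hindbrain gene *mafba* (−0.64, adjusted p = 0.0317, edgeR). Of 5 hindbrain and midbrain-hindbrain boundary markers tested, *mafba* was the 1 called, beside 10.9% of all tested genes. The sum of these markers was 65.7 to 81.0 CPM in wild-type and 45.7 to 77.3 CPM in morphant samples. Of the 4 paraxial mesoderm and muscle, 4 forebrain, 3 neural crest and 2 ionocyte precursor markers tested, 0 were called by edgeR or by DESeq2 (1 neural crest marker and 0 of the others had an unadjusted p below 0.05 in edgeR), and the ionocyte precursor markers summed to 3.47 to 7.18 CPM in wild-type and 3.24 to 5.73 CPM in morphant samples.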
